A study of Arabidopsis thaliana with 18 samples.

Results

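The 7 sugar transporter genes described here were followed across 6 root genotypes of Arabidopsis thaliana: SWEET1, SWEET2, SWEET3, SWEET4, SWEET11, SWEET12 and SUC2. They were matched by gene symbol and are 7 of the 25177 genes in the deposited table. They were selected with results of these same libraries known, over the same genotypes. Their levels, fold changes and calls are therefore given as a description, with no test of their own.

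SWEET proteins are uniporters that let sugars pass a membrane down their gradient, and most act at the plasma membrane or the tonoplast. In the phloem pathway, SWEET11 and SWEET12 release sucrose from phloem parenchyma into the cell wall space, and the sucrose-proton symporter SUC2 takes it up into companion cells. Roots depend on the sugar that this pathway delivers to them.

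The genotypes, each with 3 libraries, were gun1-101 rab8d-2, nac103-11 rab8d-2, rab8d-2, gun1-101, nac103-11 and the wild type Col-0 (WT). The first 3 carry rab8d-2, which is deficient in the plastid translation factor EF-Tu (gene RAB8D), and are called carriers below. The GUN1 protein sits in plastids and relays their state to the nucleus, while NAC103 encodes a NAC family transcription factor. All plants were grown on half-strength Murashige and Skoog medium with sucrose under long days, without other treatment, and RNA was taken from root tips. Seedlings were 4 days old by the sample titles and 3 days old by the series design. The labels name the libraries biological replicates without saying that they came from separate cultures, so the errors measure the spread between these libraries.

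Library totals were close, at 22625981 to 23090995 counts. The RAB8D transcript, listed as RABE1b, lay at 5.88 to 18.9 CPM (counts scaled to library size, with TMM factors) in carriers and at 86.1 to 176 CPM in the other genotypes, as labelled. GUN1 lay at 47.7 to 58.0 CPM in gun1-101 rab8d-2 against 91.6 to 120 CPM in rab8d-2, and at 68.4 to 91.7 CPM in gun1-101 against 133 to 166 CPM in WT, so its transcript was lower but present. NAC103 lay at 3.25 to 8.35 CPM in nac103-11 rab8d-2 against 11.4 to 29.7 CPM in rab8d-2, and at 0.0841 to 0.185 CPM in nac103-11 against 0.539 to 1.99 CPM in WT. Its level in nac103-11 rab8d-2 was thus below that of rab8d-2 and above that of WT. The third library of WT and that of nac103-11 rab8d-2 stood apart, with a chi-square per degree of freedom of 148 to 182 against their group mates. For the 7 genes, fold changes without both libraries are given where those libraries enter, apart from SWEET4, whose counts are printed. Replicates 1 and 2 of gun1-101 rab8d-2 were closer to each other than any other pair, at 2.14 against at least 12.1, which is still above sampling noise, and were counted as separate libraries.

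All 7 genes passed the filter on low counts. Here, called means an adjusted p (Benjamini-Hochberg, over 21004 genes) under 0.05 in the quasi-likelihood test of edgeR. Of the 7, 6 were called in gun1-101 rab8d-2 against gun1-101, all lower, beside 28.3% of all genes called and 15.7% called lower. In nac103-11 rab8d-2 against its nac103-11 parent, 4 were called, all lower, beside 29.0% of all genes called and 14.3% called lower. In rab8d-2 against WT, 5 were called, all lower, beside 12.3% of all genes called and 7.50% called lower. These shares are printed for scale and support nothing, because the genes were picked on these contrasts. SWEET3, SWEET11, SWEET12 and SUC2 were called in all 3 comparisons, and the share of all genes called in all 3 was not counted. The same 3 counts were obtained with both libraries that stood apart left out. Over all genes that setting called more, at 9517, 8694 and 7974 of 21183 for gun1-101 rab8d-2, nac103-11 rab8d-2 and rab8d-2. With all libraries these were 5946, 6086 and 2585 of 21004.

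**Figure D1:**
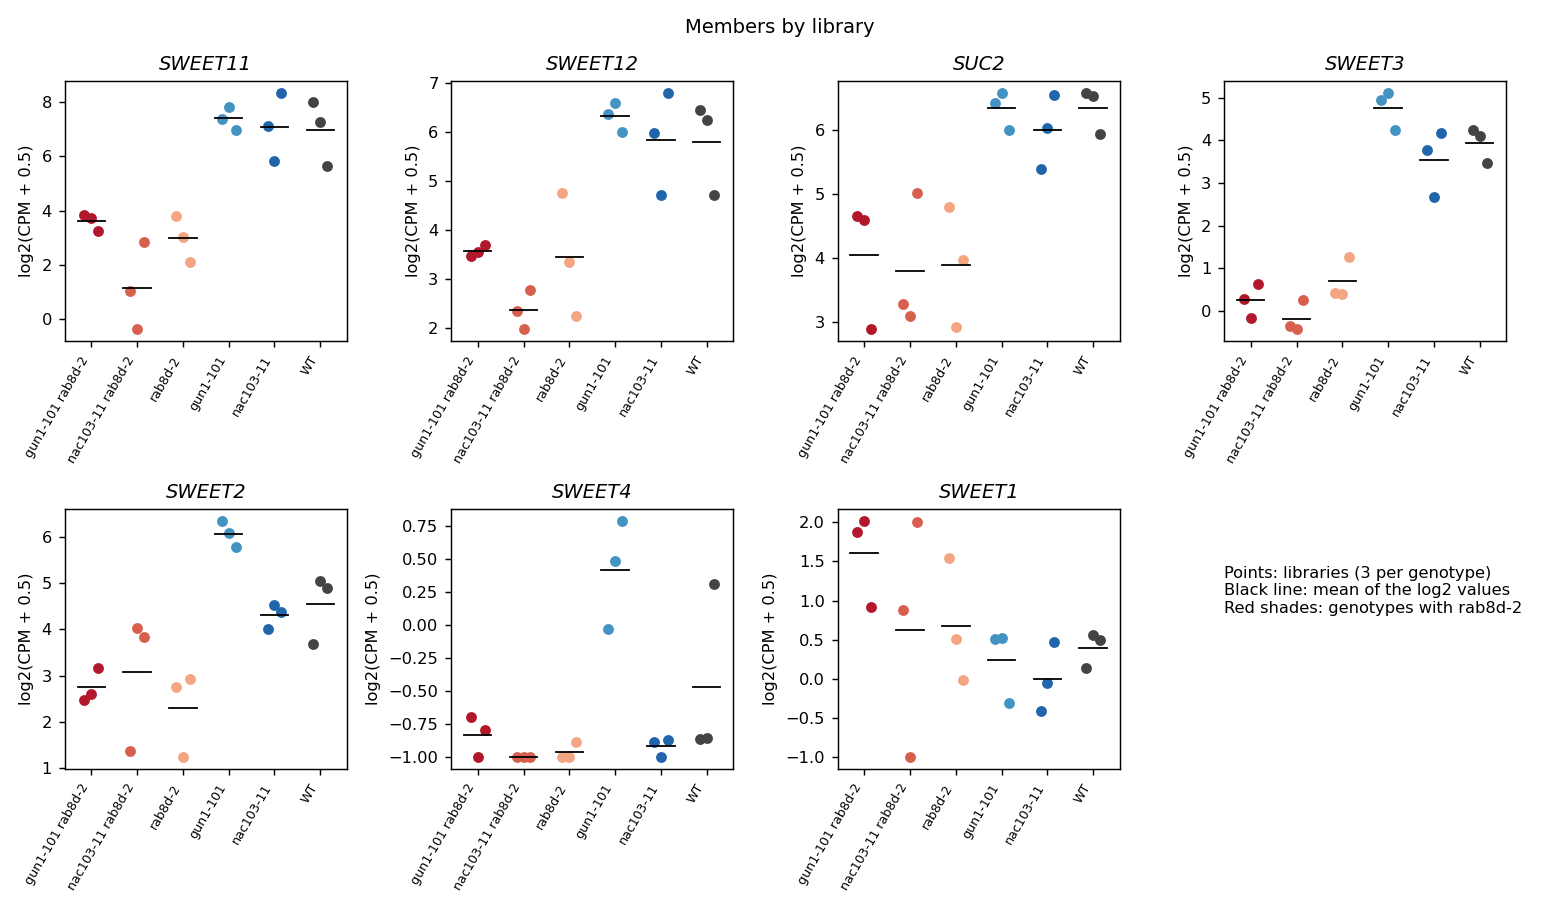
Level of each gene in each library, as log2(CPM + 0.5), with genotypes on the horizontal axis, 3 points per genotype and a black line at their mean. For SWEET3, SWEET11 and SUC2 all 9 carrier libraries lie below all 9 others, while SWEET1 has its highest values among the carriers. The share of all genes that separate in this way was not counted.

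The sequences just before the 4 genes called in all 3 comparisons are shown because these genes were lower together in every carrier genotype. Each is the 250 bases before the annotated gene start, from the RefSeq TAIR10.1 assembly, 5′ to 3′ on the strand of the gene, which is the minus strand for all 4. They lie at chr3:18054833-18055082 for SWEET11, chr5:7973996-7974245 for SWEET12, chr1:8033157-8033406 for SUC2 and chr5:21574330-21574579 for SWEET3. None overlaps another annotated gene. Capitals mark matches, on either strand, to TATAAA (the TATA box core), TATCCA (the core of a sugar-response element known from rice) or CTTNNNNNNNAAG (the palindrome bound by SOG1, the DNA damage factor known to control NAC103).
SWEET11: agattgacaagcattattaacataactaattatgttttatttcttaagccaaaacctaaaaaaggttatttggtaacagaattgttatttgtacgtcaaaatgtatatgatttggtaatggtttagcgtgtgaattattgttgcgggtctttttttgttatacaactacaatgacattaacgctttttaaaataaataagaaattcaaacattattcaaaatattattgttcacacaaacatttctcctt
SWEET12: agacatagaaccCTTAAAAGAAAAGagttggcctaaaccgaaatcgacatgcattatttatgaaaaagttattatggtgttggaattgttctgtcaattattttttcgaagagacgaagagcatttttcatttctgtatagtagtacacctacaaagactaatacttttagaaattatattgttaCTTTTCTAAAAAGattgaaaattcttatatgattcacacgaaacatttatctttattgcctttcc
SUC2: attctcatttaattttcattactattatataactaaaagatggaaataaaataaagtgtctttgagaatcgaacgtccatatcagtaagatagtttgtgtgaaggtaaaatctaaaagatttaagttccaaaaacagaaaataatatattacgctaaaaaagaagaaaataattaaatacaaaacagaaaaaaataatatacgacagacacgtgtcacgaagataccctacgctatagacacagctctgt
SWEET3: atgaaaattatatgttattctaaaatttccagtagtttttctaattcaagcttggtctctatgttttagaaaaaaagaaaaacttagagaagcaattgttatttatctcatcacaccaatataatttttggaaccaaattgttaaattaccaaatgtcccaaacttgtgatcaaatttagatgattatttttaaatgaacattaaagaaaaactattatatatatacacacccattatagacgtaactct
Only SWEET12 of the 4 holds a match, 2 copies of the palindrome, at 53 to 65 and 226 to 238 bases before the start. No match overlapped another motif. Of the 25176 windows of this length before genes of the table, 9.64% hold the palindrome, 13.8% hold TATCCA and 46.8% hold TATAAA. These matches are a description of letters in a short window.

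SWEET11 (AT3G48740, chromosome 3, 18052466 to 18054832, minus strand, 6 exons) is a plasma membrane sucrose exporter of phloem parenchyma. It had 13.96, 12.7 and 8.94 CPM in the gun1-101 rab8d-2 libraries, 1.58, 0.278 and 6.63 CPM in nac103-11 rab8d-2, and 13.6, 7.72 and 3.81 CPM in rab8d-2. It had 167, 226 and 126 CPM in gun1-101, 137, 56.8 and 322 CPM in nac103-11, and 252, 153 and 50.2 CPM in WT. Every carrier library was below every other library. The libraries spread widely within nac103-11 rab8d-2, rab8d-2, nac103-11 and WT, and less within gun1-101 rab8d-2 and gun1-101. The log2 fold change was -3.87 ± 0.88 (SE, n = 3 per genotype) in gun1-101 rab8d-2 against gun1-101, -5.98 ± 0.99 in nac103-11 rab8d-2 against nac103-11 and -4.18 ± 0.90 in rab8d-2 against WT, the last an 18.1-fold lower level. Without the 2 libraries that stood apart it was -7.54 in nac103-11 rab8d-2 against nac103-11 and -4.57 in rab8d-2 against WT. The call against WT was lost without rab8d-2 replicate 2 (log2 -4.13) and in a fit of the 6 libraries alone (log2 -4.15).

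SWEET12 (AT5G23660, chromosome 5, 7971647 to 7973995, minus strand, 6 exons) is the close partner of SWEET11 in sucrose export. It had 10.5, 11.1 and 12.4 CPM in the gun1-101 rab8d-2 libraries, 4.55, 3.41 and 6.31 CPM in nac103-11 rab8d-2, and 26.5, 9.65 and 4.25 CPM in rab8d-2. It had 81.5, 95.4 and 63.2 CPM in gun1-101, 62.2, 25.6 and 110 CPM in nac103-11, and 86.9, 75.2 and 25.6 CPM in WT. The groups overlapped at 1 point only, where rab8d-2 replicate 1 was above nac103-11 replicate 2 and WT replicate 3. The log2 fold change was -2.81 ± 0.63 (SE) in gun1-101 rab8d-2 against gun1-101, -3.80 ± 0.66 in nac103-11 rab8d-2 against nac103-11 and -2.22 ± 0.61 in rab8d-2 against WT. Without the 2 libraries that stood apart the last 2 values were -4.06 and -2.56. The call against WT was lost without WT replicate 1 (log2 -1.90), WT replicate 2 (-2.05), rab8d-2 replicate 2 (-2.03) or rab8d-2 replicate 3 (-1.79), and in the 6 libraries alone.

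The balance of the pair also differed between the genotypes. On the TPM scale, which corrects for transcript length, the ratio of SWEET11 to SWEET12 was 1.28, 1.11 and 0.696 in gun1-101 rab8d-2, 0.337, 0.0783 and 1.02 in nac103-11 rab8d-2, and 0.496, 0.776 and 0.868 in rab8d-2. It was 1.99, 2.30 and 1.93 in gun1-101, 2.14, 2.15 and 2.83 in nac103-11, and 2.81, 1.97 and 1.90 in WT. The median was 0.776 over the 9 carrier libraries and 2.14 over the 9 others, and the 2 sets did not overlap. The share of other gene pairs whose ratio separates in this way was not counted. The lowest ratio, 0.0783 in nac103-11 rab8d-2 replicate 2, rests on 7 counts of SWEET11. The ratio rests on the same values that chose the genes and was not tested.

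**Figure D2:**
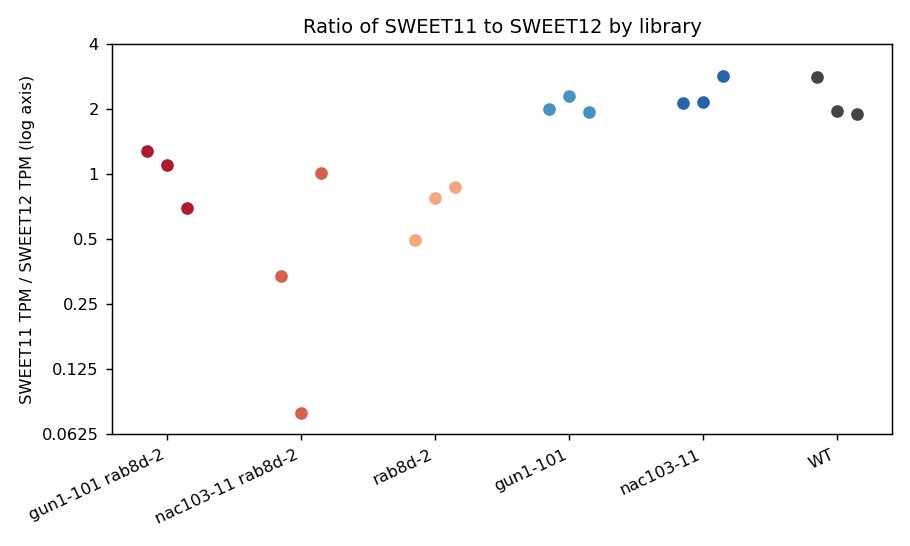
Ratio of SWEET11 TPM to SWEET12 TPM in each library, on a log axis, by genotype, 3 points each. Carrier libraries lie between 0.0783 and 1.28 and the others between 1.90 and 2.83. The lowest ratio rests on 7 counts of SWEET11, and the share of other gene pairs that separate in this way was not counted.

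SUC2 (AT1G22710, chromosome 1, 8030587 to 8033156, minus strand, 4 exons) loads sucrose into companion cells. It had 24.6, 23.5 and 6.90 CPM in the gun1-101 rab8d-2 libraries, 9.22, 8.05 and 31.9 CPM in nac103-11 rab8d-2, and 27.4, 7.08 and 15.2 CPM in rab8d-2. It had 85.1, 94.8 and 63.5 CPM in gun1-101, 41.4, 64.8 and 92.9 CPM in nac103-11, and 94.7, 91.8 and 60.7 CPM in WT. The highest carrier library, nac103-11 rab8d-2 replicate 3, was below the lowest of the others. Its log2 fold changes were close to each other, at -2.15 ± 0.59 (SE) in gun1-101 rab8d-2 against gun1-101, -2.03 ± 0.59 in nac103-11 rab8d-2 against nac103-11 and -2.32 ± 0.60 in rab8d-2 against WT. Without the 2 libraries that stood apart the middle value was -2.95 and the last was -2.47. The SUC2 call was lost in the first comparison without gun1-101 rab8d-2 replicate 3 (log2 -1.75). In the nac103-11 comparison it was lost without nac103-11 replicate 3 (-1.70), nac103-11 rab8d-2 replicate 1 (-1.74) or replicate 2 (-1.70), and in the 6 libraries alone. Against WT it was lost without WT replicate 1 (-2.20), WT replicate 2 (-2.22), rab8d-2 replicate 2 (-1.95) or rab8d-2 replicate 3 (-2.26), and in the 6 libraries alone.

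SWEET3 (AT5G53190, chromosome 5, 21572143 to 21574329, minus strand, 6 exons) is a less studied family member. It had 0.706, 0.391 and 1.06 CPM in the gun1-101 rab8d-2 libraries, 0.277, 0.238 and 0.688 CPM in nac103-11 rab8d-2, and 0.830, 0.804 and 1.90 CPM in rab8d-2. It had 30.2, 34.2 and 18.4 CPM in gun1-101, 13.2, 5.84 and 17.5 CPM in nac103-11, and 18.5, 16.8 and 10.6 CPM in WT. No carrier library reached the lowest of the others. The log2 fold change was -5.25 ± 0.55 (SE) in gun1-101 rab8d-2 against gun1-101, -4.99 ± 0.57 in nac103-11 rab8d-2 against nac103-11 and -3.69 ± 0.51 in rab8d-2 against WT. It was -5.55 in nac103-11 rab8d-2 against nac103-11 and -3.87 in rab8d-2 against WT with both libraries that stood apart left out. In these 3 comparisons SWEET3 kept its call under every alternative run, the only one of the 7 to do so.

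SWEET2 (AT3G14770, chromosome 3, 4957334 to 4959704, minus strand, 6 exons) is a tonoplast glucose transporter known to limit sugar loss from roots. It had 5.02, 5.55 and 8.52 CPM in gun1-101 rab8d-2 against 81.7, 67.3 and 54.9 CPM in gun1-101, a log2 difference of -3.41 ± 0.63 (SE). It had 2.06, 15.8 and 13.8 CPM in nac103-11 rab8d-2 against 15.7, 22.7 and 20.3 CPM in nac103-11, where the libraries overlapped and the gene was not called (log2 -0.89 ± 0.58). It had 6.26, 1.85 and 7.05 CPM in rab8d-2 against 12.4, 32.8 and 29.5 CPM in WT (log2 -2.30 ± 0.61). Without the 2 libraries that stood apart the nac103-11 rab8d-2 difference was -1.13, still not called, and that of rab8d-2 was -2.13. SWEET2 was highest in gun1-101, where all 3 libraries were above every library of the other genotypes. The difference between gun1-101 and WT was log2 1.45 ± 0.58 and was not called. The call in rab8d-2 against WT was lost without WT replicate 2 (log2 -2.04), without rab8d-2 replicate 2 (-1.90) and in the 6 libraries alone.

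SWEET4 (AT3G28007, chromosome 3, 10408073 to 10409977, minus strand, 6 exons), a hexose transporter of the vascular tissue, was near the detection limit. Its counts were 3, 0 and 2 in gun1-101 rab8d-2 against 11, 20 and 28 in gun1-101. The summed level was 13.5-fold higher in gun1-101 (95% counting interval 5.46 to 43.0, exact binomial, counting error only), and the gene was called there. That call was lost without gun1-101 replicate 3 (log2 -3.31), gun1-101 rab8d-2 replicate 2 (-3.10) or replicate 3 (-3.77), and with gun1-101 rab8d-2 replicates 1 and 2 averaged (-3.41). In nac103-11 rab8d-2 all 3 libraries had 0 counts, which allows up to 0.0451 CPM, against 1, 0 and 1 in nac103-11, so no fold is given. The counts were 0, 0 and 1 in rab8d-2 against 1, 1 and 17 in WT. The WT total thus rests on replicate 3, which stood apart, and the gene was not called in that comparison.

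SWEET1 (AT1G21460, chromosome 1, 7511750 to 7513481, minus strand, up to 6 exons), a plasma membrane glucose uniporter, was low throughout and went the other way. It had 3.18, 3.56 and 1.40 CPM in gun1-101 rab8d-2 against 0.918, 0.941 and 0.307 CPM in gun1-101 (log2 1.90 ± 0.97 SE). It had 1.35, 0 and 3.50 CPM in nac103-11 rab8d-2 against 0.252, 0.464 and 0.881 CPM in nac103-11 (log2 1.57 ± 1.00). It had 2.41, 0.925 and 0.486 CPM in rab8d-2 against 0.597, 0.969 and 0.913 CPM in WT (log2 0.62 ± 0.96). Only the gun1-101 pair did not overlap, and none of the 3 differences was called. SWEET1 was called in gun1-101 rab8d-2 against gun1-101 by the 6 libraries alone (log2 1.87) and by limma on TPM (1.16), and in nac103-11 rab8d-2 against nac103-11 without nac103-11 rab8d-2 replicate 2 (2.17). Without the 2 libraries that stood apart the nac103-11 rab8d-2 difference was 0.32 and that of rab8d-2 was 0.73, and neither was called.

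**Figure D3:**
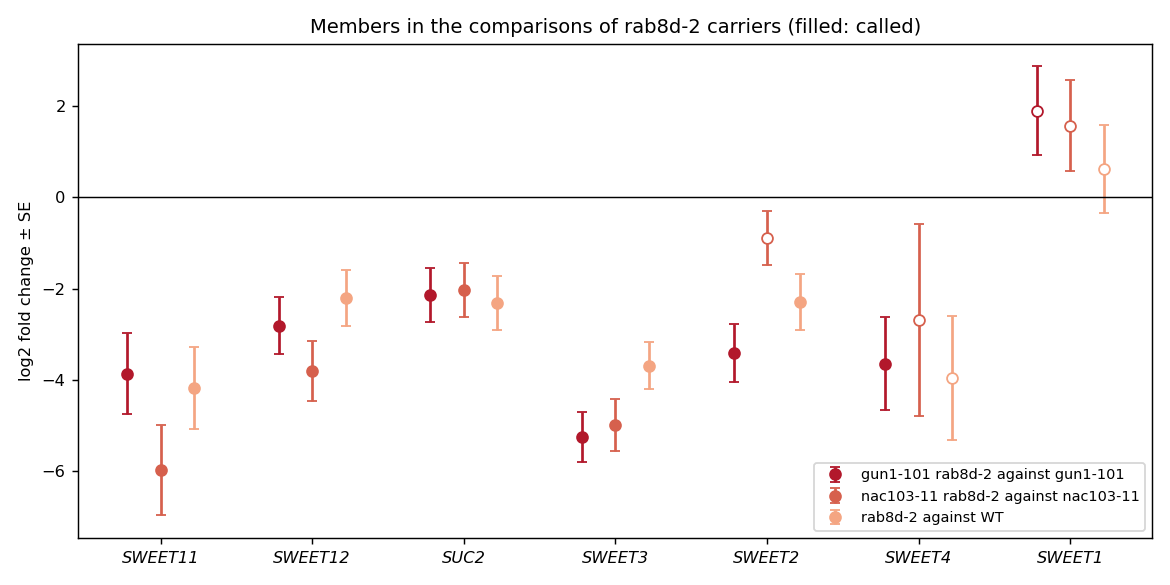
Log2 fold change of each gene with its SE in the 3 comparisons of carriers with their counterparts, positive where the carrier was higher, and filled where the gene was called. The 4 genes on the left are below 0 and called in all 3, and SWEET1 lies above 0 and is called in none.

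None of the 7 genes was called by edgeR in the comparisons that do not contrast carriers with non-carriers. These were gun1-101 against WT (0.0190% of all genes called), nac103-11 against WT (0.00952%), gun1-101 rab8d-2 against rab8d-2 (4.18%) and nac103-11 rab8d-2 against rab8d-2 (2.54%). They also included the interactions, that is the carrier difference in the mutant background minus that in WT, for gun1-101 (0.195%) and nac103-11 (0.00952%). At an unadjusted p below 0.05 edgeR counted 1, 1, 0, 2, 1 and 0 of the 7 in that order. DESeq2 called 1, SWEET3 in nac103-11 rab8d-2 against rab8d-2 (log2 -1.62), and limma on TPM called 0. Between nac103-11 rab8d-2 and rab8d-2, SWEET11 differed by log2 -1.62 ± 0.86 (SE), SWEET12 by -1.51 ± 0.61 and SWEET3 by -1.63 ± 0.57. Between gun1-101 rab8d-2 and rab8d-2, SWEET11 differed by 0.51 ± 0.80, SWEET12 by -0.24 ± 0.59 and SWEET3 by -0.71 ± 0.52. SWEET4 was called in gun1-101 against WT (log2 3.99) once the 2 libraries that stood apart were left out, on 59 counts in gun1-101 and 2 in the WT libraries kept. In that setting 3946 of 21183 genes were called in this comparison, against 4 of 21004 with all libraries.

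The family as a whole held 25 genes of the table, 17 SWEET and 8 SUC, of which 15 were tested. The 10 that were not tested, 6 SWEET and 4 SUC genes, had at most 11 counts in any library. Per length, SWEET11 averaged 9.75 ± 1.98 TPM in gun1-101 rab8d-2, 1.61 ± 1.60 TPM in nac103-11 rab8d-2 and 6.43 ± 3.68 TPM in rab8d-2 (SD, n = 3), against 123 ± 34.5, 119 ± 91.0 and 95.2 ± 62.4 TPM in gun1-101, nac103-11 and WT. In nac103-11 rab8d-2 the highest of the 7 were SUC2 at 6.70 ± 3.61 TPM and SWEET2 at 5.88 ± 4.56 TPM, ahead of SWEET12 at 3.29 ± 0.465 TPM. In WT SWEET11 was the highest, ahead of SWEET12 at 40.5 ± 19.4 TPM and SUC2 at 35.3 ± 5.55 TPM, and these levels overlapped between libraries. In all 3 carrier genotypes the vacuolar SWEET16 and SWEET17 and the symporters SUC1 and SUC3 (listed as SUT2) averaged more TPM than any of the 7. SWEET17, a vacuolar fructose transporter, was called in none of the 3 carrier comparisons. It had 39.6 ± 1.27 TPM in gun1-101 rab8d-2 and 59.2 ± 5.46 TPM in gun1-101, 42.9 ± 18.1 TPM in nac103-11 rab8d-2 and 36.5 ± 15.6 TPM in nac103-11, and 26.3 ± 8.91 TPM in rab8d-2 and 51.2 ± 9.84 TPM in WT.

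Other sugar genes from fixed lists, 88 matched and 69 tested, did not move in a single direction. These lists, and the cell type marker lists below, were chosen with earlier results of these data known. Their shares and adjusted p values therefore describe these libraries and are no independent test. Of the 69 genes, 10 rose and 12 fell in gun1-101 rab8d-2 against gun1-101, and 7 rose and 9 fell in nac103-11 rab8d-2 against nac103-11. These calls are 31.9% and 23.2% of the 69, beside 28.3% and 29.0% of all genes called. In rab8d-2 against WT the share was 7.25%, beside 12.3% of all genes, so the lists did not stand above the background there. Of these 5 genes, 3 rose in rab8d-2, namely the hexokinase HXK3 (log2 0.49), the sucrose synthase SUS2 (1.3) and the vacuolar carrier TMT3 (1.80), and 2 fell, namely the vacuolar glucose exporter ERDL6 (-0.83) and the carrier SFP1 (-1.31). All 5 calls were lost without rab8d-2 replicate 2 and in the 6 libraries alone, and that of HXK3 was lost in 7 of 13 alternatives. SUS2, TMT3, ERDL6 and SFP1 are named because these calls are few, after their values were seen. The median log2 fold change of the 69 genes was -0.05, 0.01 and -0.18 in that order, beside 0.05, 0.09 and 0.01 over all genes tested. Against rab8d-2, each double mutant had 1 call, A/N-InvC in gun1-101 rab8d-2 and STP13 in nac103-11 rab8d-2, both higher and both lost in several alternatives. For gun1-101 and nac103-11 against WT and for their interactions with rab8d-2, edgeR called 0, with 5, 3, 14 and 9 at an unadjusted p below 0.05, DESeq2 called 0, 1, 3 and 3, and limma on TPM called 0 in each.

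Among the transporters, STP13 (AT5G26340, listed as MSS1), a hexose-proton symporter that retrieves sugar from outside the cell, had 100.04, 103 and 93.8 CPM in gun1-101 rab8d-2 against 22.4, 26.6 and 17.2 CPM in gun1-101. It rose 4.49-fold there (log2 2.17 ± 0.57, adjusted p = 0.0119), and no library overlapped. It also rose in nac103-11 rab8d-2, at 61.7, 119 and 325 CPM, against 21.9, 44.9 and 31.0 CPM in nac103-11 (log2 2.37 ± 0.58, adjusted p = 0.00753), and against rab8d-2 (log2 2.59 ± 0.58, adjusted p = 0.0347). In rab8d-2 itself STP13 had 35.5, 21.7 and 26.3 CPM, against 53.3, 81.7 and 15.2 CPM in WT. There the libraries overlapped and the gene was not called. The STP13 call in gun1-101 rab8d-2 was lost without gun1-101 replicate 3. The highest value in nac103-11 rab8d-2 is from replicate 3, which stood apart, and without the 2 such libraries the log2 value was 1.46 against nac103-11 and 1.72 against rab8d-2, both still called. The call against nac103-11 was lost in the 6 libraries alone. That against rab8d-2 was lost there, with the replicate block, without nac103-11 rab8d-2 replicate 3 and without any 1 of the rab8d-2 libraries. SUC3, a sucrose symporter of the sieve element, had 95.9, 92.3 and 71.6 CPM in gun1-101 rab8d-2 against 48.9, 45.9 and 31.1 CPM in gun1-101 (log2 1.05 ± 0.23, adjusted p = 0.00377). SUC1, a sucrose symporter known from pollen and roots, rose in the same comparison with 115 ± 30.3 against 47.0 ± 8.62 CPM (SD; log2 1.28, adjusted p = 0.0320), and that call was lost on leaving out any 1 of 4 libraries. These gun1-101 rab8d-2 libraries thus had less SUC2 than gun1-101 and more SUC1 and SUC3.

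SWEET14, a plasma membrane transporter of the same clade as SWEET11 and SWEET12, had 2.61, 0.793 and 17.6 CPM in nac103-11 rab8d-2 against 0.168, 1.07 and 0.0927 CPM in nac103-11. It was called higher (log2 3.96 ± 1.00, adjusted p = 0.00936), but the libraries overlapped. The call was lost without nac103-11 rab8d-2 replicate 3, when the log2 value was 1.92, and in the 6 libraries alone. It was the only one of the 5 tested SWEET genes outside the 7 to be called in any carrier comparison.

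Of 15 tested vacuolar, plastid and polyol carriers, 1 rose and 4 fell in gun1-101 rab8d-2 against gun1-101, and 1 rose and 3 fell in nac103-11 rab8d-2 against nac103-11. These calls are 33.3% and 26.7% of the 15, near the 28.3% and 29.0% of all genes called. INT4, a plasma membrane inositol symporter, had 8.36 ± 1.83 CPM in gun1-101 rab8d-2, against 22.7 ± 4.15 CPM in gun1-101 (SD, n = 3; log2 -1.44, adjusted p = 0.00254). TMT1, which loads sugar into the vacuole, had 81.0, 87.6 and 127 CPM in nac103-11 rab8d-2 against 216, 325 and 279 CPM in nac103-11 (log2 -1.47, adjusted p = 0.0102). STP7, known as a symporter for arabinose and xylose, had 37.9 ± 4.93 CPM in gun1-101 rab8d-2, against 69.4 ± 12.4 CPM in gun1-101 (log2 -0.87, adjusted p = 0.00528), a call lost on the TPM scale.

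Enzymes that cleave sucrose were mixed, with 2 of 17 higher and 2 lower in the gun1-101 pair and 1 higher and 2 lower in the nac103-11 pair, beside 28.3% and 29.0% of all genes called. The vacuolar invertase VI2 (listed as ATBETAFRUCT4) fell to 60.3 ± 15.9 CPM in nac103-11 rab8d-2, against 137 ± 5.00 CPM in nac103-11 (log2 -1.19 ± 0.24, adjusted p = 0.00264). CWINV6, a fructan exohydrolase of the invertase family, had 11.2 ± 0.608 CPM in gun1-101 rab8d-2, against 4.23 ± 0.558 CPM in gun1-101 (log2 1.41, adjusted p = 0.000729). A/N-InvC, a neutral invertase of mitochondria, had 109 ± 26.5 CPM in the gun1-101 rab8d-2 libraries, against 46.2 ± 15.7 CPM in gun1-101 (adjusted p = 0.00777) and 49.5 ± 3.21 CPM in rab8d-2 (adjusted p = 0.0468). Against rab8d-2 that call was lost in 8 of 14 alternatives, among them no filter on low counts, replicates 1 and 2 averaged, limma on TPM and 5 of the 6 single libraries left out. Sucrose phosphate synthase SPS1F had 27.9 ± 6.08 CPM in nac103-11 rab8d-2 and 56.7 ± 4.09 CPM in nac103-11 (log2 -1.02, adjusted p = 0.00116). SPS4F of the same enzyme family rose to 8.14 ± 2.42 CPM in gun1-101 rab8d-2, against 2.82 ± 0.329 CPM in gun1-101 (log2 1.53, adjusted p = 0.0368), a call lost in 7 of 14 alternatives.

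Of 4 tested genes of hexose phosphorylation and sensing, 2 rose and 1 fell in gun1-101 rab8d-2 against gun1-101, beside 28.3% of all genes called. HKL1, a hexokinase-like protein, rose to 43.7 ± 11.4 CPM in gun1-101 rab8d-2, against 21.8 ± 1.74 CPM in gun1-101 (log2 1.00, adjusted p = 0.00290), and kept its call in all 14 alternatives. HXK3 also rose (log2 0.42), a call lost in 8 of 14. The hexokinase HXK2 fell to 13.5 ± 1.55 CPM in the gun1-101 rab8d-2 libraries, against 22.6 ± 1.60 CPM in gun1-101 (log2 -0.74, adjusted p = 0.00614), and kept its call in all 14.

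Of 10 genes known to rise in sugar starvation, 3 fell and 0 rose when gun1-101 rab8d-2 was set against gun1-101, and 3 rose and 2 fell when nac103-11 rab8d-2 was set against nac103-11, beside 28.3% and 29.0% of all genes called. For rab8d-2 against WT edgeR called 0 of them, with 2 at an unadjusted p below 0.05. BXL1, a beta-xylosidase of that list, averaged 53.4 ± 7.73 CPM in gun1-101 rab8d-2, against 168 ± 23.9 CPM in gun1-101 (log2 -1.65 ± 0.25, adjusted p = 0.000361). It had 51.8 ± 13.8 CPM in nac103-11 rab8d-2 and 141 ± 28.9 CPM in nac103-11 (log2 -1.44, adjusted p = 0.000995). TPS11, a trehalose phosphate synthase homologue, had 103 ± 59.4 CPM in nac103-11 rab8d-2 and 41.8 ± 7.56 CPM in nac103-11 (log2 1.31, adjusted p = 0.00663). Its log2 value was 1.37 with both libraries that stood apart left out, and the call was lost in the 6 libraries alone (0.78).

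**Figure D4:**
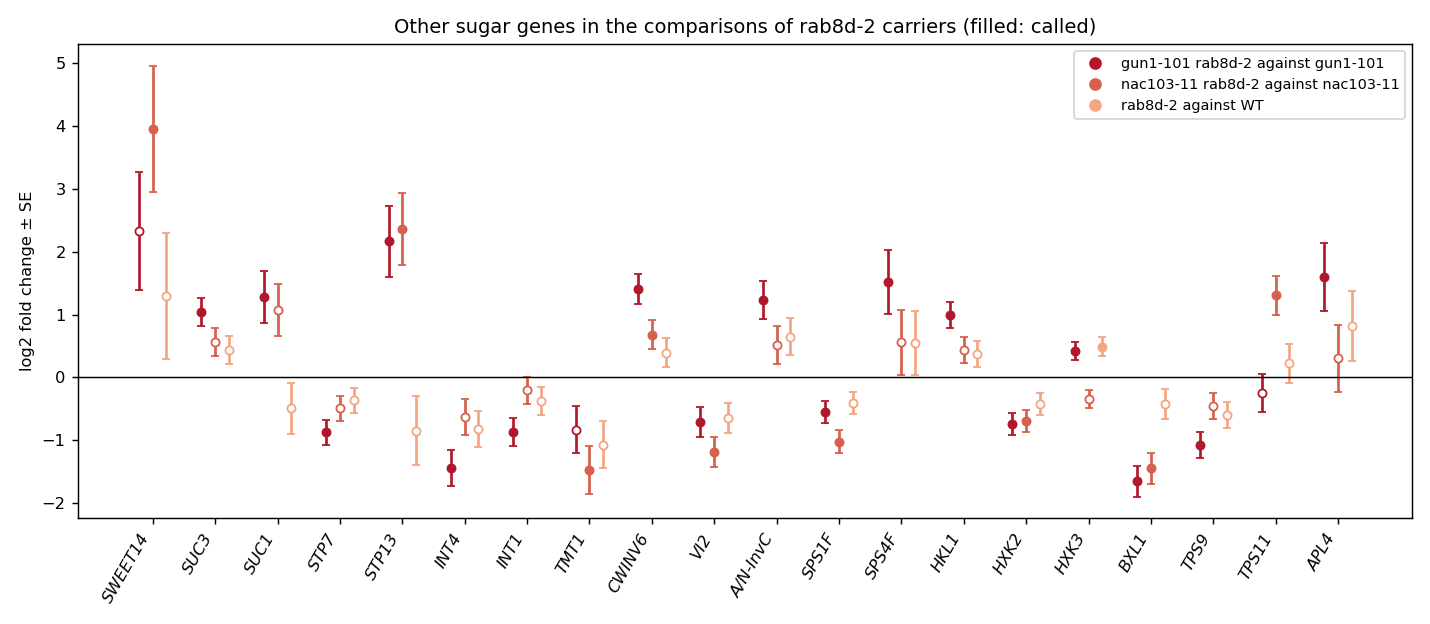
Log2 fold change with its SE of 20 other sugar genes in the 3 comparisons of carriers with their counterparts, positive where the carrier was higher, and filled where the gene was called. Called genes lie on both sides of 0, from SWEET14 at 3.96 to BXL1 at -1.65.

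Cell type markers were followed in the same comparisons. Phloem markers, 21 genes, summed to 373 to 441 CPM in the gun1-101 rab8d-2 libraries, 307 to 508 CPM in nac103-11 rab8d-2 and 310 to 440 CPM in rab8d-2. They summed to 511 to 548 CPM in gun1-101, 410 to 653 CPM in nac103-11 and 550 to 598 CPM in WT. Of the 21, 5 fell and 3 rose in gun1-101 rab8d-2 against gun1-101, and 6 fell and 1 rose in nac103-11 rab8d-2 against nac103-11. These calls are 38.1% and 33.3% of the 21, beside 28.3% and 29.0% of all genes called. The share in rab8d-2 against WT was 14.3%, beside 12.3% of all genes. Without the libraries that stood apart the sums were 307 and 315 CPM in nac103-11 rab8d-2 and 552 and 598 CPM in WT. In rab8d-2 against WT 3 fell, namely the sieve element genes SEOR1 (log2 -2.28) and SEOA (-2.34), named after their values were seen, and BAM3 (-0.90), whose call was lost in 5 of 13 alternatives. BAM3, a receptor kinase of protophloem, fell to 62.4 ± 3.50 CPM in nac103-11 rab8d-2, against 145 ± 44.0 CPM in nac103-11 (log2 -1.21, adjusted p = 0.00127). SULTR2;1, a sulphate transporter of the vascular tissue, rose to 39.5 ± 2.68 CPM in the gun1-101 rab8d-2 libraries, against 2.76 ± 1.55 CPM in gun1-101 (log2 3.84, adjusted p = 0.00334). SULTR1;3, a sulphate transporter of companion cells, rose to 3.56 ± 0.134 CPM in gun1-101 rab8d-2, against 0.0584 ± 0.0668 CPM in gun1-101 (log2 5.80, adjusted p = 0.00306). It was also called higher in nac103-11 rab8d-2, at 3.23 ± 4.57 CPM, against 0.154 ± 0.163 CPM in nac103-11 (log2 4.34, adjusted p = 0.00860), and that call was lost without nac103-11 rab8d-2 replicate 3.

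Xylem markers, 5 genes, fell in 5 of 5 in both double mutant comparisons and in 4 of 5 in rab8d-2 against WT, with sums of 28.4 to 126 CPM in carriers and 198 to 405 CPM in the other genotypes. Root hair markers fell in 4 of 5 in each of these comparisons, and endodermis markers in 1, 3 and 3 of 5 (the gun1-101, nac103-11 and WT pairs). Meristem markers rose in 3, 1 and 1 of 4. Of all genes, 28.3%, 29.0% and 12.3% were called in these pairs in the same order, and 15.7%, 14.3% and 7.50% were called lower. Of 3 root cap markers, BRN2 fell in both double mutant comparisons (log2 -2.10 and -2.15). In rab8d-2 against WT the calls of all these markers and of the phloem markers were lost without rab8d-2 replicate 2, and without WT replicate 2 only those of SEOR1 and the xylem marker IRX5 were kept. In the double mutant comparisons 4 or 5 xylem markers and 3 or 4 root hair markers were called in every alternative. The endodermis call in the gun1-101 pair was lost without any 1 of the 6 libraries. Leaf markers, 5 genes, summed to 32.2 to 61.8 CPM in gun1-101 rab8d-2 against 199 to 229 CPM in gun1-101. Of the 5, only RCA (Rubisco activase) was called there, lower (log2 -3.19), beside 28.3% of all genes called. That call was lost in 3 of 14 alternatives, namely without gun1-101 rab8d-2 replicate 1 or 2 and with these replicates averaged. By mean CPM only CA1 of this list went the other way, at 1.52 CPM in gun1-101 rab8d-2 against 0.132 CPM in gun1-101. In nac103-11 rab8d-2 the leaf markers summed to 3.53 to 101 CPM, against 37.9 to 280 CPM in nac103-11. In rab8d-2 they summed to 53.6, 57.6 and 774 CPM, against 158 to 592 CPM in WT. Libraries overlapped in both of these pairs. No marker was at 0 in all 3 libraries of a genotype. In these bulk samples fewer cells of a type and less RNA per cell cannot be told apart, and the part of cell makeup in the levels of the 7 transporters was not tested.

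By root mean square difference of centred log2 CPM over the 18 libraries, among 7092 genes, the pattern of SWEET11 was closest to SWEET3 (1.03), SWEET12 (1.04) and UMAMIT17 (1.20). SWEET12 itself was closer to IGMT1 (0.680), CP12-1 (0.745) and ATPC1 (0.787), and SWEET3 to RABE1b (0.750), CYCP4;2 (0.774) and CLE5 (0.787). RABE1b is RAB8D, the gene deficient in the carriers, so its nearness restates the split between carriers and other genotypes. Of the 4 genes called in all 3 comparisons SUC2 had the smallest differences, and also the smallest spread about its own mean. Its nearest genes were OPT7 (0.348), NRT1.9 (0.382), a nitrate transporter of companion cells, and CYP710A1 (0.409). OPT7 averaged 8.60, 6.64 and 8.01 CPM in the gun1-101 rab8d-2 libraries, nac103-11 rab8d-2 and rab8d-2, and 30.9, 25.2 and 30.5 CPM in gun1-101, nac103-11 and WT. SWEET2 was closest to DOX1 (0.494), COR413-PM1 (0.625) and UMAMIT11 (0.646). SWEET1 was closest to BON1 (0.378), XTH18 (0.392) and DREB26 (0.395), which like SWEET1 averaged most in gun1-101 rab8d-2. SWEET4, at a few counts, was closest to TRM18 (0.292), PGR5-LIKE A (0.295) and VHA-E3 (0.306). The root mean square spread of each gene about its own mean was 2.55 for SWEET11, 2.01 for SWEET3, 1.62 for SWEET12 and 1.32 for SUC2. It was 1.44 for SWEET2, 0.822 for SWEET1 and 0.567 for SWEET4. A gene with little spread has small differences, so the values are not comparable between the 7 genes. The libraries share genotype and depth, and these are descriptions with no test.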

How the data were processed

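RNA was sequenced from 18 root tip libraries, 3 per genotype. Expected counts per gene were made by the authors with RSEM 1.3.1 on the TAIR10 build, per the submitters' processing notes, and were deposited without normalization. The authors also deposited TPM values, which summed to 67.1% to 79.5% of the nominal sum. The aligner, annotation and filters are not given in the sources used here. Columns of genotype means, 12 in all, were not used.

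Expected counts were rounded, which changed 19.6% of values in the table (tolerance 1e-06) and none of the 126 values of the 7 genes. In R 4.3.3, edgeR 4.0.16 filtered with filterByExpr (21004 genes kept, 4173 removed), scaled by TMM (factors 0.706 to 1.17) and fitted all 18 libraries together by quasi-likelihood, robustly, with genotype as the 1 factor (common dispersion 0.104). A gene was called at an adjusted p below 0.05. The SE of a log2 fold change is its size over the square root of F. Alternatives used DESeq2 1.42.0 and limma 3.58.1. Intervals and the floor of 3 counts per genotype cover counting error only.

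The 7 genes and the 16 lists of 147 genes, of which 136 matched by name and locus, were chosen with earlier results of these data known. Named list genes are up to 3 per list with the smallest adjusted p among those called in a carrier comparison. For patterns, the 3 genes with a symbol, at least 5 CPM on average and the smallest difference are named. Gene models and sequences are from RefSeq on TAIR10.1, and no count was read by coordinates.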

Additional observations from a re-analysis of the deposited data

How the results depend on the processing

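Directions of the calls were the same under every alternative run for the 7 transporters, and counts moved most in rab8d-2 against WT. Calls among the 7 there were 5, against 1 in the 6 libraries alone and 1 to 5 with 1 library left out. Other sugar genes called there were 5, against 3 with the replicate block, 24 without the 2 libraries that stood apart, 0 in the 6 libraries alone, 10 by DESeq2 and 0 to 10 with 1 library left out. For gun1-101 rab8d-2 against gun1-101 they numbered 22, against 12 with replicates 1 and 2 averaged, 42 in the 6 libraries alone and 12 to 17 with 1 left out. In nac103-11 rab8d-2 against nac103-11 they were 16, against 6 in the 6 libraries alone and 10 to 17 with 1 left out. Without the 2 libraries, gun1-101 against WT gave 1 of the 7 and 9 other sugar genes, and nac103-11 against WT gave 2 (1 by DESeq2), all against 0. Over all genes, leaving out the 2 libraries raised the calls from 4 to 3946 for gun1-101 and from 2 to 1219 for nac103-11. In gun1-101 rab8d-2 against rab8d-2 the 1 call was 0 without the filter on low counts, 9 without the 2 libraries, 0 with replicates averaged, 6 in the 6 libraries alone, 5 by limma on TPM, 8 by DESeq2 and 0 to 2 with 1 left out. In nac103-11 rab8d-2 against rab8d-2 the 1 call was 0 with the replicate block, 0 in the 6 libraries alone, 2 by limma, 10 by DESeq2 and 0 to 7 with 1 left out, and DESeq2 called 1 of the 7. The interaction of gun1-101 gave 5 without the 2 libraries, 3 by DESeq2 and 0 to 1 with 1 left out, and that of nac103-11 gave 3 by DESeq2. The cause was not tested.

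Taken over all pairs of libraries from different genotypes, the replicate numbers showed no clear pairing. Same-numbered libraries had a median correlation of 0.0225 between deviations from their genotype means, above 0.1 in 11 of 45 pairs. For libraries with other numbers the median was -0.0159, above 0.1 in 21 of 90 pairs. Pairing between single genotypes was not tested. The replicate block left 5, 6 and 4 of the 7 called in rab8d-2 against WT, the gun1-101 pair and the nac103-11 pair. On the TPM scale the median of all genes shifted by log2 0.16 in gun1-101 rab8d-2 against gun1-101, 0.21 in rab8d-2 against WT, 0.13 for gun1-101 and 0.11 for nac103-11 against WT, -0.14 in nac103-11 rab8d-2 against rab8d-2 and -0.24 in the interaction of nac103-11. Depth limits SWEET4, at 28 counts or fewer in any library, and SWEET1, at 91 or fewer.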
